A study of Mus musculus with 5 samples.

Results

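The genes described here encode secreted signals that pattern the embryo, together with secreted proteins that block such signals. There were 48 of them among 22367 annotated protein-coding genes, listed by name, with earlier results of these data known: 18 WNT ligands, 8 BMP and GDF ligands, 8 FGF ligands, 3 hedgehog ligands, 3 BMP antagonists, 5 WNT antagonists, and Nodal with its antagonists Lefty1 and Lefty2. For each gene and each list of CBX2 peaks, every peak that overlapped the gene body extended by 5 kb on each side was recorded, with its width and with whether it contained the annotated 5′ end of the gene. All 48 symbols were found in the annotation.

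CBX2 is a chromobox subunit of Polycomb Repressive Complex 1 (PRC1) and can bind histone H3 trimethylated at lysine 27, the mark deposited by PRC2. Polycomb complexes are known for holding developmental regulators silent in cell types that do not use them, and their sites often lie at CpG islands, which are stretches of DNA rich in G+C and in CG dinucleotides. WNT ligands bind Frizzled receptors, BMP and GDF ligands belong to the TGF-β superfamily, FGFs bind receptor tyrosine kinases, and hedgehog proteins bind Patched receptors. The antagonists act outside the cell. Noggin, Chordin and Gremlin bind BMPs, Dickkopf proteins block the WNT co-receptors, secreted Frizzled-related proteins bind WNTs, and Lefty proteins block Nodal.

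Mouse embryonic fibroblasts (MEFs) were profiled by ChIP-Seq with an antibody against CBX2. Control cells were these MEFs, which were isolated with floxed Eed alleles. Whether the Control cells were untransduced or carried an empty vector is not stated in the study's methods. EZHIP cells stably expressed human EZHIP, a PRC2 inhibitor found in posterior fossa ependymomas, from a lentivirus, and K27M cells stably expressed the histone mutant H3.3 K27M in the same way. The study's methods describe both as derived from the floxed MEFs, which came from 1 embryo. Transduced cells were selected with puromycin, and whether the Control cells were also selected is not stated. The comparison addressed whether PRC1 sites were altered when PRC2 was inhibited. A single library per condition gave a single list of broad peaks, with 327 peaks for K27M, 289 for Control and 255 for EZHIP. Read depth is unknown, the lists hold no peak height, and there were no replicates, so a difference between lists is a difference between libraries and no p-value was computed. RNA was not measured in these samples, so the fibroblast label could not be checked against marker genes.

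Sequences are shown for members on which the results turn. The Wnt3 promoter (chr11:103635214-103635513, mm9, plus strand) is the one member start that lay inside a peak, and the Wnt1 promoter (chr15:98620038-98620337, plus strand) is that of a WNT ligand with no peak. Each runs from 250 bases before the 5′ end to 50 bases after it, 5′ to 3′ on the strand of the gene, and capitals mark CG dinucleotides.
Wnt3 promoter: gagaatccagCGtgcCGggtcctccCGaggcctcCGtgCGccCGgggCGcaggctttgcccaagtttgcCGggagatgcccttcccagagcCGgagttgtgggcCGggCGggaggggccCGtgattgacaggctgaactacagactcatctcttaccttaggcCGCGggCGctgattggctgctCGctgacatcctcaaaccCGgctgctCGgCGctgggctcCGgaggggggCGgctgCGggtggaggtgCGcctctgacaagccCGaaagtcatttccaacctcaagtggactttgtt
Wnt1 promoter: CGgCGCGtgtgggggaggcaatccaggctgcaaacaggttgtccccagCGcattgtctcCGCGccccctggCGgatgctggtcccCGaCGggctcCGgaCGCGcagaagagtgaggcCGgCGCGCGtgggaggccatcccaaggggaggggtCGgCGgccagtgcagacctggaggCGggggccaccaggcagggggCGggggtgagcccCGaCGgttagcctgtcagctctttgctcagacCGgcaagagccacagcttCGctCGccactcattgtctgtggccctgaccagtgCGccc
The Wnt3 promoter held 24 CG and the Wnt1 promoter 26, against a median of 11 over all 22367 promoters of this length. As many CG as in Wnt3 were held by 24.1% of all promoters, and as many as in Wnt1 by 20.1%. The promoter without a peak thus held at least as many CG as the promoter with one. Its ratio of observed to expected CpG, which takes the C and G content into account, was lower (0.70 against 0.75). Only 1 promoter of each kind is compared here.

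For the other members with a peak, the 300 bases of the peak with the most CG, outside annotated UTRs, are shown in the same way on the strand of the gene. They come from Wnt8b (chr19:44586197-44586496, plus strand, coding), Bmp5 (chr9:75626959-75627258, plus strand, intronic), Fgf9 (chr14:58693611-58693910, plus strand, not coding) and Shh (chr5:28784648-28784947, minus strand, coding). The sequences from inside the peaks were chosen after the peaks were known.
Wnt8b peak: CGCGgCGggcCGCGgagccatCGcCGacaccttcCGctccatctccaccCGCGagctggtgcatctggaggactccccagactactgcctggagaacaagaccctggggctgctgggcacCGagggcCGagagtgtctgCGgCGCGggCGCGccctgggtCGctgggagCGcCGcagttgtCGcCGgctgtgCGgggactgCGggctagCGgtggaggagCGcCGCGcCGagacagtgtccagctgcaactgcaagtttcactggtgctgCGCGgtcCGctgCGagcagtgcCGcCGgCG
Bmp5 peak: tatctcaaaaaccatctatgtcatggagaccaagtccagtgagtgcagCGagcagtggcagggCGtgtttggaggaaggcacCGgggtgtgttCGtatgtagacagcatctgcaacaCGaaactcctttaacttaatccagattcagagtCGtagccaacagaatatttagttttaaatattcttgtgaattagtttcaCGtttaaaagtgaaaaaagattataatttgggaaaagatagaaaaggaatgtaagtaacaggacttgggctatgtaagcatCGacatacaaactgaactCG
Fgf9 peak: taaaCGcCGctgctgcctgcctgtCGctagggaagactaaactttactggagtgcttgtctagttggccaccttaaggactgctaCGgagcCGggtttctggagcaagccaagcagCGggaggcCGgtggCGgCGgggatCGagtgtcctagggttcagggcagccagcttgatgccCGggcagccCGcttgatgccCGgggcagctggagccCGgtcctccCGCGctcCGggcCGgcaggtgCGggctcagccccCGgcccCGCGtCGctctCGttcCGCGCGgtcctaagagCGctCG
Shh peak: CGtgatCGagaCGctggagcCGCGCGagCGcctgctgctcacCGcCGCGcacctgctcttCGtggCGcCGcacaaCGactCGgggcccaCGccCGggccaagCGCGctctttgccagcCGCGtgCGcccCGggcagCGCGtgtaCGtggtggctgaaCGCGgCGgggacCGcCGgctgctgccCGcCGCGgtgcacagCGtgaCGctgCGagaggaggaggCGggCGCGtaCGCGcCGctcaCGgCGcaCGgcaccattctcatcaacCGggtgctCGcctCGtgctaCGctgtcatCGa
The number of CG was 51 in the Shh sequence, 36 in Wnt8b, 29 in Fgf9 and 9 in Bmp5. G+C content was 73.7% in the Shh sequence, 72.0% in Wnt8b and 68.0% in Fgf9, and it was lowest in Bmp5.

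A CBX2 peak was called in at least 1 list at 5 of the 48 members (10.4%), and at 2.27% of all protein-coding genes. In Control cells, 0 of the 48 members had a peak in the window, whereas 1.49% of all protein-coding genes did. In EZHIP cells, 1 member had a peak (2.08%, against 1.44% of all genes). In K27M cells, 4 members had a peak (8.33%, against 1.78% of all genes). A count of 0 among 48 allows a share of up to 6.25% (3 counts, counting error only), which lies above the share over all genes, so the Control count does not place the members below other genes. No member had a peak in more than 1 list, and 43 had none in any list. The rule gives a longer gene more room for an overlap. Median gene length was 41.8 kb for the 5 members with a peak, 13.0 kb for all members and 15.4 kb for all protein-coding genes. The part of gene length in these counts was not tested.

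**Figure D1:**
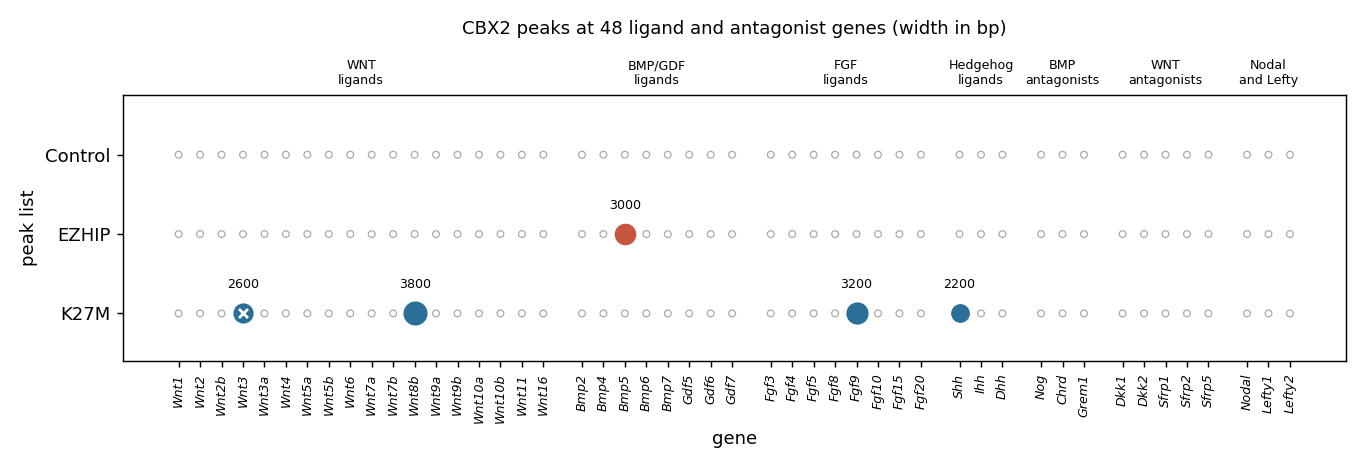
Each column is 1 of the 48 genes, grouped by pathway, and each row is a peak list (1 library each). Filled circles are peaks overlapping the gene body extended by 5 kb, scaled by and labelled with their width in bp, open circles are genes without one, and the white cross marks a peak that contains the 5′ end. Peaks appear at Bmp5 in EZHIP (3000 bp) and at Wnt3, Wnt8b, Fgf9 and Shh in K27M (2200 to 3800 bp), and the Control row is empty.

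The 5′ end of the gene lay inside a peak for 1 member, Wnt3 in K27M cells. No member start lay inside a Control or an EZHIP peak. Over all protein-coding genes the 5′ end lay in a peak for 0.903% (Control), 0.894% (EZHIP) and 1.19% (K27M), so the members' shares of 0%, 0% and 2.08% were each within 1 gene of the share over all genes.

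Among WNT ligands, Wnt3 and Wnt8b had a peak in K27M cells, and the other 16 of 18 had none in any list. Wnt3 is needed for gastrulation and limb outgrowth and lies on chromosome 11 (103635464 to 103679271, mm9, plus strand). No peak was called in its window in Control or EZHIP cells, where the nearest peak was 2128 kb away in each list. The K27M peak was 2600 bp wide (103633601 to 103636200). It reached from 1863 bp upstream of the 5′ end to 736 bp downstream and covered the first of 5 exons, with 80 coding bases. Its neighbour Wnt9b, transcribed in the opposite direction, lay 22.5 kb from this peak and had none of its own. Wnt9b was the member closest to a peak without meeting the rule, while the peaks of the 5 members that met it all overlapped the gene itself.

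Wnt8b is expressed in the developing forebrain and lies on chromosome 19 (44567962 to 44588763, plus strand). Its window held no Control or EZHIP peak and 1 K27M peak of 3800 bp (44584001 to 44587800). This peak lay in the body of the gene, from 16039 to 19838 bp downstream of the 5′ end, and overlapped exons 3 to 6 of 6, with 951 coding bases. The start of Wnt8b had no CpG island window within 1 kb. The only island sequence in its window, 1150 bp, lay entirely under the peak. Here and below, an island window is 500 bp long, with G+C at 55% or more and an observed over expected ratio of CpG at 0.65 or more.

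The WNT ligands without a peak were Wnt1, Wnt2, Wnt2b, Wnt3a, Wnt4, Wnt5a, Wnt5b, Wnt6, Wnt7a, Wnt7b, Wnt9a, Wnt9b, Wnt10a, Wnt10b, Wnt11 and Wnt16. They include Wnt1, which acts in the midbrain and neural crest, Wnt4, which acts in kidney and ovary, Wnt5a, which acts in limb and axis outgrowth, and Wnt7a, which acts in the dorsal limb.

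Among BMP and GDF ligands, 1 of 8 had a peak, and it was found in EZHIP cells. Bmp5, which acts in skeletal development, lies on chromosome 9 (75623171 to 75748117, plus strand). Its 3000 bp EZHIP peak (75624401 to 75627400) began 1230 bp downstream of the 5′ end and lay wholly in the intron after the first exon. The nearest peak was 917 kb away in Control and 907 kb away in K27M. Bmp5 had no island window anywhere in its extended gene body, and the peak had a G+C content of 32.1% and 23 CG in all. Bmp2, Bmp4, Bmp6, Bmp7, Gdf5, Gdf6 and Gdf7 had no peak. Bmp2 and Bmp4 are used from gastrulation to heart and limb formation, and Gdf5 in joints.

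Among FGF ligands, Fgf9 had a K27M peak and the other 7 of 8 had none. Fgf9, which acts in lung, gonad and skeleton, lies on chromosome 14 (58689384 to 58731174, plus strand). Its K27M peak measured 3200 bp (58691401 to 58694600) and lay between 2017 and 5216 bp downstream of the 5′ end, and its window held no Control or EZHIP peak. The annotation gives 4 protein-coding transcript starts for Fgf9, and 2 of them lay inside the peak, 2139 and 4568 bp downstream of the 5′ end of the gene. Counting any transcript start, the K27M list therefore had 2 members with a start in a peak, Wnt3 and Fgf9. Fgf3, Fgf4, Fgf5, Fgf8, Fgf10, Fgf15 and Fgf20 had no peak. Fgf8 and Fgf10 signal between the ridge and the mesenchyme of the limb bud, and Fgf4 acts there too.

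Among hedgehog ligands, Shh had a K27M peak, and Ihh and Dhh had none. Shh patterns the neural tube and the limb and lies on chromosome 5 (28783355 to 28793641, minus strand). The K27M peak was 2200 bp wide (28783801 to 28786000) and lay from 7641 to 9840 bp downstream of the 5′ end, over the last of 3 exons. It covered 746 coding bases, 597 UTR bases and 857 intronic bases. The annotated long noncoding RNA 9530036O11Rik, on the plus strand, begins within this peak at 28784814, so the peak cannot be assigned to Shh alone. No peak was called over Shh in Control or EZHIP cells. Ihh acts in cartilage and Dhh in testis and nerve sheath.

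The antagonists had no peak in any list. This held for the BMP antagonists Nog, Chrd and Grem1, for the WNT antagonists Dkk1, Dkk2, Sfrp1, Sfrp2 and Sfrp5, and for Lefty1 and Lefty2. With Nodal counted among the ligands, 0 of 10 antagonists and 5 of 38 ligands (13.2%) had a peak in at least 1 list, beside 2.27% of all genes. With only 10 antagonists, a count of 0 does not place them below the share over all genes. Among the further genes of these pathways, described below, the counts ran the other way. A peak in at least 1 list was found at 0 of 30 ligands and at 1 of 15 secreted antagonists. The split was not tested.

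**Figure D2:**
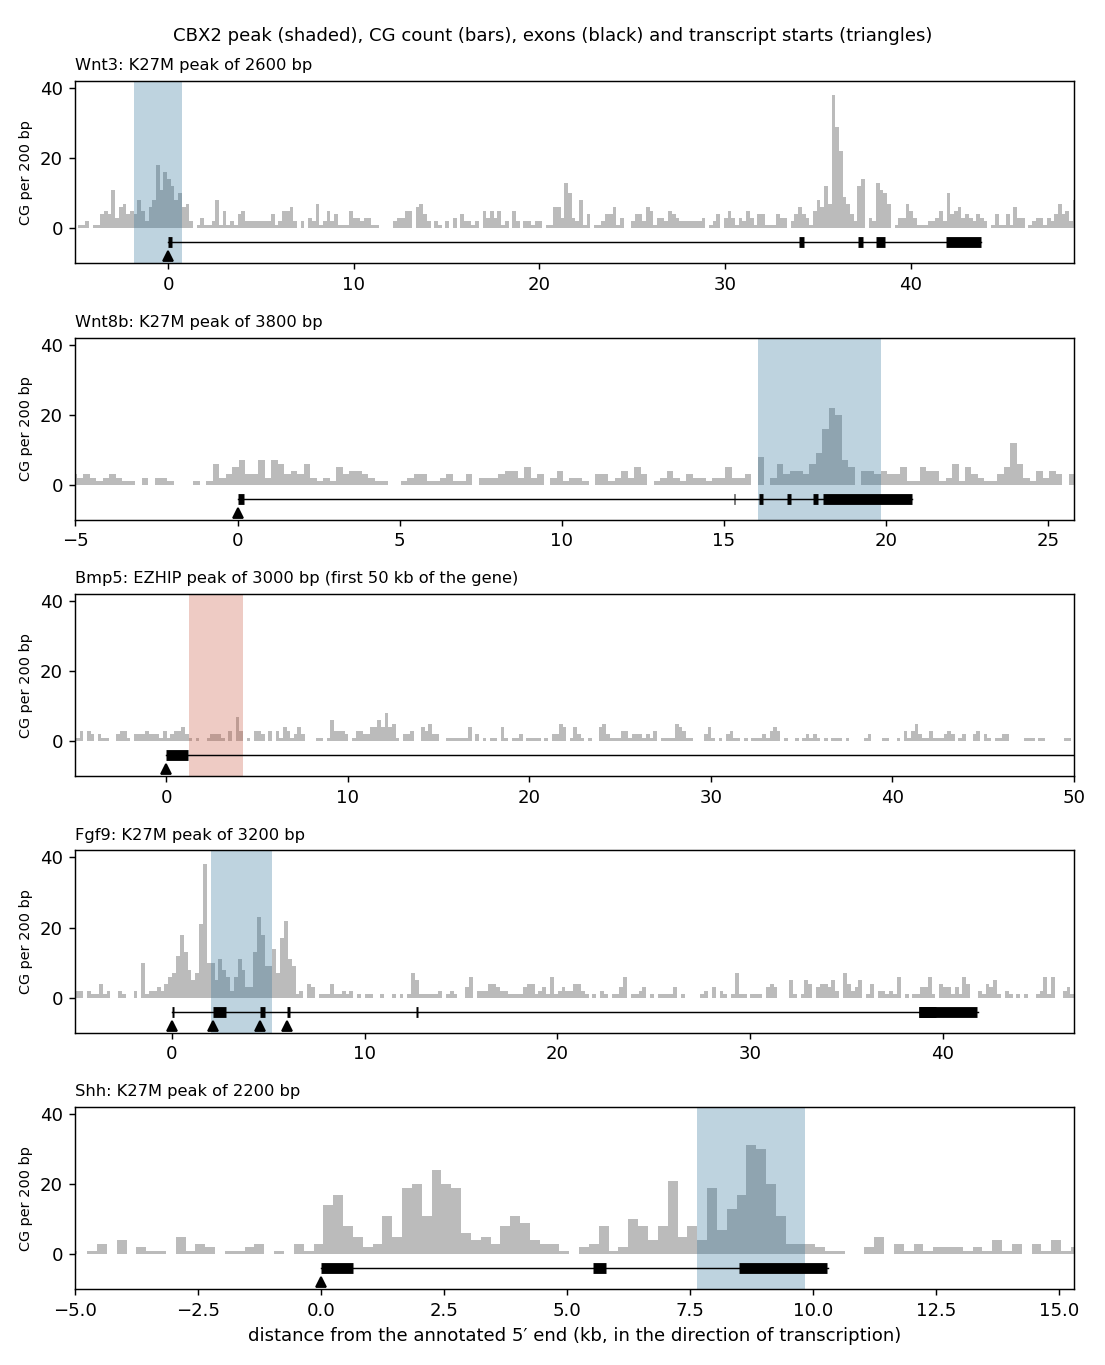
CG dinucleotides per 200 bp (grey bars) against distance from the annotated 5′ end in kb, for the 5 genes with a peak. The shaded span is the peak, black boxes are exons and triangles are protein-coding transcript starts. The Wnt3 peak covers the start, the Fgf9 peak covers 2 later starts, the Wnt8b and Shh peaks lie over the last exons, and the Bmp5 peak lies in an intron poor in CG.

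The peaks at these genes were narrow for their lists. The median width of the 4 K27M peaks was 2900 bp, against 9600 bp for all 327 K27M peaks. The Shh peak, at 2200 bp, had the smallest width in the list, a width shared by 5 peaks. The Wnt3 peak was as wide as or wider than 18 of the 327 peaks (5.50%), the Fgf9 peak 41 (12.5%) and the Wnt8b peak 56 (17.1%). The Bmp5 peak was as wide as or wider than 33 of 255 EZHIP peaks (12.9%). The Control list reached down to 1200 bp, below the 2200 bp minimum of the other lists, and still held no peak at these genes. Among peaks of at least 5000 bp, 0 members had a peak in any list. With the 255 widest peaks from each list, the smallest K27M peak was 4400 bp, and the members with a K27M peak fell to 0. The EZHIP list holds 255 peaks in all, so this setting removed none of them and Bmp5 kept its peak by construction. The share of all protein-coding genes was not computed for the 5000 bp setting or for the 255 widest peaks. The member counts under them therefore have no background to be read against.

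**Figure D3:**
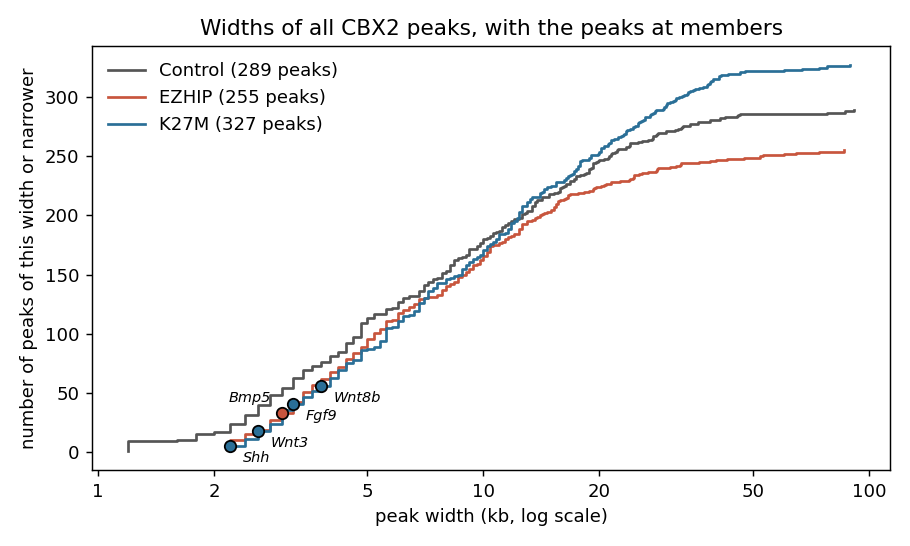
Number of peaks at or below each width, against peak width in kb on a log axis, for the 3 lists, with the peaks at members as labelled circles. All 5 circles lie between 2.2 and 3.8 kb, in the lowest part of the curves.

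Because members had peaks in K27M or EZHIP alone, none of these genes had a width in Control to compare with, and no width ratio could be given. The 4 members with a K27M and no Control peak made up 8.33% of members, beside 0.537% of all genes. For EZHIP and not Control, the 1 member made up 2.08%, beside 0.286%. In the other direction, 0 members had a Control peak that was missing in K27M or in EZHIP, beside 0.246% and 0.335% of all genes. The K27M list also had the most peaks of the 3, and the part of read depth or calling in the K27M count was not tested. None of the 32-base words sampled from the 5 peaks occurred more than once in the genome. The words covered only part of each peak, and only exact copies were counted. The part of repeated sequence in the calls was not tested.

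In island windows and CpG ratio, most members had starts like those that CBX2 peaks cover. An island window lay within 1 kb of the 5′ end in 37 of 48 members (77.1%), in 53.2% of all genes and in 82.4% of the genes whose 5′ end lay in a K27M peak. The share was 82.7% for starts in Control peaks and 83.0% for starts in EZHIP peaks. In the 1 kb around the 5′ end, the median observed over expected CpG ratio was 0.73 for the 43 members without a peak, 0.55 for all genes, and 0.70 to 0.75 for genes with the start in a peak of the 3 lists. G+C and CG number were higher in the members without a peak than in genes with the start in a peak. Median G+C was 63.6% against 56.2% to 58.3%, and the median number of CG was 79.0 against 56.5 to 59.0. Wnt4 had 137 CG in this 1 kb, Wnt9a 130 and Nog 122, and all 3 were without a peak. Of the 37 members with an island at the start, 0 had a peak in Control and 0 in EZHIP, and Wnt3, Fgf9 and Shh, 3 in all (8.11%), had one in K27M. Over the 11908 genes with an island at the start, the shares were 2.23% (Control), 2.19% (EZHIP) and 2.58% (K27M). The 11 members without an island at the start were Wnt8b, Wnt10a, Wnt16, Bmp4, Bmp5, Gdf5, Fgf10, Dhh, Dkk1, Lefty1 and Lefty2.

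**Figure D4:**
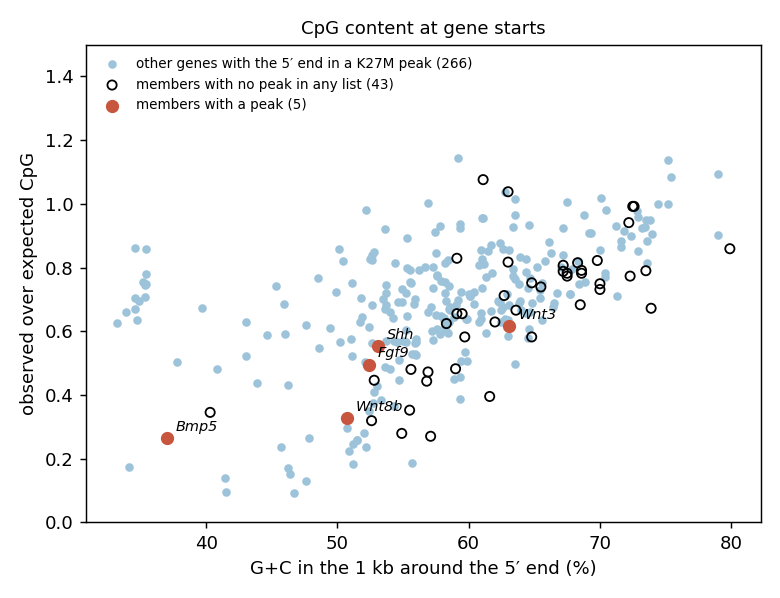
Observed over expected CpG against G+C content (%) in the 1 kb around the annotated 5′ end. Blue points are 266 other genes whose 5′ end lay in a K27M peak, open circles are the 43 members without a peak, and red points are the 5 members with one. The members without a peak lie among the blue points, and Bmp5 and Wnt8b lie low on the CpG axis (0.26 and 0.33).

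Island sequence was also counted over the whole extended gene body, which includes the start. At least 1 island window was found there in 41 of the 43 members without a peak, with a median of 2150 bp. Of these 43, 34 already had one within 1 kb of the 5′ end. Among the members with a peak, 4 of 5 had an island window in the extended gene body. The share over all genes was not computed for this window. The Wnt8b peak covered all island sequence of its window, as given above, and 3 other peaks covered part of it. The Wnt3 window held 3850 bp of island sequence, of which 1700 bp lay under the peak. The values were 1150 of 4050 bp at Fgf9 and 1796 of 5350 bp at Shh. At Shh the island at the 5′ end was outside the peak.

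The distance from each gene to the nearest peak was then taken. For Control the median was 3356 kb, for EZHIP 3633 kb and for K27M 1394 kb, against 3713, 3856 and 2817 kb over all protein-coding genes on chromosomes with peaks. Within 500 kb of a peak lay 6 members in Control (12.5%, against 12.4% of all genes), 9 in EZHIP (18.8%, against 11.6%) and 16 in K27M (33.3%, against 15.7%). Neighbouring members are not separate observations. Joining members within 100 kb of each other left 40 loci, 6 of which held 14 members. The 16 members near a K27M peak had 11 distinct nearest peaks.

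**Figure D5:**
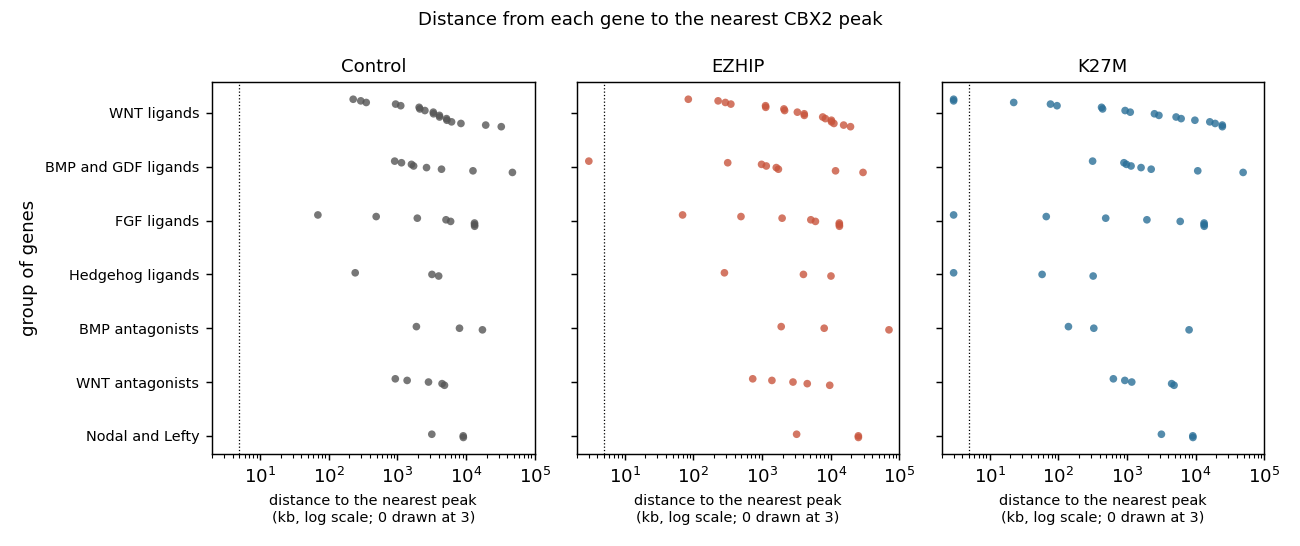
Distance in kb (log axis) from each member to the nearest CBX2 peak, by group of genes, with 1 panel per list; a distance of 0 is drawn at 3 kb and the dotted line marks 5 kb. No Control point lies left of the line, 1 EZHIP point and 4 K27M points do, and most points lie beyond 100 kb.

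The peaks near members differed in what they contained. Wnt6, Wnt10a and Ihh shared a 5600 bp K27M peak that contained the start of Fev, 96.1 kb from Wnt6, 77.2 kb from Wnt10a and 58.3 kb from Ihh. No Control or EZHIP peak was within 500 kb of these genes. Fgf5 lay 67.0 kb from a K27M peak of 8800 bp that contained the start of Prdm8, while the Control peak there (3400 bp, 69.8 kb away) and the EZHIP peak (3200 bp, 69.6 kb away) did not reach it. Wnt8b lay 212 to 229 kb from a peak at the start of Pax2, which was 38000 bp wide in K27M, 18800 bp in Control and 15600 bp in EZHIP. Shh lay 277 to 283 kb from a peak at the start of En2, which measured 23000 bp in K27M, 16400 bp in Control and 10400 bp in EZHIP. Nearer to Shh were a K27M peak of 11800 bp, 242 kb away, and a Control peak of 2600 bp, 244 kb away. Neither contained a protein-coding gene start. Fgf8 lay 492 to 493 kb from a peak at Lbx1 in every list. Wnt7b had an EZHIP peak of 5400 bp at 84.3 kb and none within 500 kb in the other lists. Nog lay 330 kb from a K27M peak at the start of Coil and Chrd 141 kb from one at Vwa5b2. Wnt3a and Wnt9a lay 292 to 353 kb from Control and EZHIP peaks at the start of Hist3h2ba. Bmp7 lay 316 and 317 kb from EZHIP and K27M peaks at Tcfap2c. Dhh, Wnt1 and Wnt10b lay 323 to 443 kb from a K27M peak of 2800 bp that contained no protein-coding gene start. These neighbouring genes were named after their values were seen. A peak at such a distance was not assigned to the ligand.

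Of 105 further ligands, antagonists, receptors, effectors and targets of these pathways, 3 had a peak in the window in each list (2.86%), beside 1.49% (Control), 1.44% (EZHIP) and 1.78% (K27M) of all genes. The 30 further ligands had none. Wif1, a secreted WNT inhibitor, had its start inside a 5600 bp EZHIP peak. A 2200 bp Control peak lay wholly within the same interval and began 985 bp downstream of the start. Lef1, a nuclear effector of WNT signalling, had its start inside a 4600 bp K27M peak, while a 2400 bp Control peak lay wholly upstream, with its nearer edge at -989 bp. Sp5, a WNT target, had its start inside a 7000 bp K27M peak and no peak in the other lists. Id3, a BMP target, had a 2600 bp EZHIP peak that began 189 bp downstream of its start. Among 30 receptor genes, Fgfr2 alone met the rule in all lists, with peaks of 15800, 15400 and 17800 bp in Control, EZHIP and K27M. These lay 1612633 bp or more from its annotated 5′ end, inside a gene record 3009 kb long, and contained the start of Hmx2, another gene.

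Families of developmental transcription factors gave other values under the same rule. A peak lay in the window of 21 of 39 Hox genes in Control, 23 in EZHIP and 19 in K27M. For 12 LIM homeobox genes the counts were 7, 6 and 8, and for 16 T-box genes they were 3, 2 and 3. Hox genes sit in clusters that share peaks, so these counts are not independent, and the difference from the ligands was not tested. A ligand gene missing from a list had no called peak, and nothing further can be read from it without reads or heights.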

How the data were processed

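CBX2 ChIP-Seq peak lists of 3 libraries (Control, EZHIP and K27M) were used. Those labelled K27R and EEDnull were not analysed here. Per the study's methods, the authors aligned reads to mouse mm9 and a spike-in genome with bowtie1 (Bowtie 1.0.0 in the submitters' processing notes) and called broad peaks per library with MOSAiCS-HMM. The deposited lists hold chromosome, start and end only. Peaks are runs of 200 bp bins, given here 1-based on mm9, and depth and the use of an input are not given in the sources used here. Genes were protein-coding records of GENCODE vM1 on NCBIM37, the assembly of mm9, which also supplied the sequences, and no peak ended beyond its chromosomes. Overlap was at least 1 bp. For a symbol with several records, the longest was used. The nearest-peak background left out genes on chromosome Y, which had no peaks. Island windows were scanned in 50 bp steps. Sampled 32-base words were taken every 100 bp and counted on either strand.

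Members and gene lists were chosen with earlier results of these data known. All members with a peak were described. Of the further pathway genes, those with the start in a peak in all lists or in 1 list were to be named, and Fgfr2 and Id3 were added after their values were seen, as were the transcription factor families. Printed promoters were to come from members in the widest Control peak found in all lists, of which there were 0, from members with the start in a peak of 1 list, and from the first WNT ligand without a peak by name. Overlap steps were tested on simulated data. Analysis used Python 3.11.15, numpy 2.4.6 and matplotlib 3.10.9. Alternatives changed the window, the overlap, the 5′ end and the peaks used.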

Additional observations from a re-analysis of the deposited data

How the results depend on the processing

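The 12 results were recomputed under 9 settings. Of the 76 values obtained, 67 lay within 1.5 times the reported one and 9 did not. This tally does not measure stability. The settings were computed for the members only, so no share over all genes stands beside the recomputed counts. Results that were 0 could not move under settings that only removed peaks or narrowed the window. With 0 members in Control, the counts of members with a peak there missing in Control also repeat the window counts of K27M and EZHIP. With only peaks of at least 5000 bp, the members with a peak fell from 4 to 0 in K27M and from 1 to 0 in EZHIP, the members with a peak there and not in Control fell to 0 as well, and the K27M starts inside a peak fell from 1 to 0. When each list was reduced to its 255 widest peaks, the K27M counts were again 0, 0 and 0. The EZHIP list already held 255 peaks, so its values could not move there. Otherwise fewer and wider peaks enter these settings by construction, and medians could not be given where no peak was left. Counting any transcript start raised the K27M starts inside a peak to 2. Windows of the gene body alone or with 10 kb each side moved none of the counts they applied to. An overlap of at least 1000 bp, joining of peaks closer than 10000 bp, and starts within 1000 bp of a peak moved none either. A common minimum width of 2200 bp, chosen after the lists were seen, could not move any count. It is the minimum of the EZHIP and K27M lists already, and Control had 0 members with a peak. The planned width ratio to Control was not run because 0 members had a Control peak. No paired analysis was possible because there was 1 library per group, and unknown read depth limits every comparison of peak number and width.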
